A study of Rattus norvegicus with 24 samples.

Results

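The genes described here encode subunits of the mitochondrial respiratory chain and of ATP synthase, as measured in rat left ventricle. They were taken by symbol, as every probe whose symbol starts with Nduf, Uqcr, Cox4 to Cox8, Cycs, Cyc1 or Atp5, which gave 58 genes, each with 1 probe, out of 22517 probes on the array. By complex, 27 belong to complex I, 6 to complex III, 12 to complex IV and 12 to ATP synthase (complex V), and 1 is cytochrome c. Of the 58, 56 passed the detection filter used for all genes (detection p under 0.05 on 6 or more of the 24 arrays). Ndufb4 of complex I was above background on 4 arrays and Cox6b (now Cox6b1) of complex IV on 2, and both were left untested. Some symbols in the files are old: Atp5g1, Atp5g2 and Atp5g3 are now Atp5mc1, Atp5mc2 and Atp5mc3, Atp5h is now Atp5pd, and Cox8h is now Cox8b. The rule also took in 4 entries that are no structural subunits: Ndufaf1 (a complex I assembly factor), Cox7a2l (a factor that joins complexes III and IV), Atp5s (now Dmac2l) and Cox6c1 (listed by RefSeq as the pseudogene Cox6c-ps1).

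The study profiled male Wistar rats in 4 groups of 6 animals, with 1 array for each animal. Ligated fat-fed rats had the left coronary artery tied off to bring on cardiac dysfunction and then ate a high saturated fat chow, and ligated chow-fed rats had the same operation followed by normal rodent chow. Sham fat-fed and sham chow-fed rats had a sham operation followed by the fat chow or the normal chow. Fat supplied 60% of that chow's calories, with palmitic acid at 25%, stearic acid at 33% and oleic acid at 33%. All rats weighed 300 to 350 g, and procedures were done 3 to 6 hours into the dark phase. The sources used here do not say how long the diets lasted or whether the piece of ventricle held scar tissue.

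Complex I takes electrons from NADH, complex III passes them from ubiquinol to cytochrome c, and complex IV hands them to oxygen. Complexes I, III and IV move protons across the inner mitochondrial membrane, and ATP synthase lets the protons return while it makes ATP. Heart muscle is packed with mitochondria, makes most of its ATP in this way, and carries muscle forms of several complex IV subunits.

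The signals are bead intensities on a linear scale, analysed here as background-corrected, quantile-normalized log2 signal. Each array detected between 8884 and 10475 probes, and 10392 genes were tested. The arrays fell into a set of 12 with high background and a set of 12 with low background. The high set held 5 ligated fat-fed, 2 ligated chow-fed, 3 sham fat-fed and 2 sham chow-fed animals, so that results are also given with the set as a block or within it. Heart muscle markers were detected for 15 of 15 measured genes on all 24 arrays, but they do not tell ventricle from atrium. Of the atrial markers, Nppa and Myl7 were measured, and both were detected on all 24 arrays. Fewer cells of a type and less RNA per cell cannot be told apart in such bulk tissue.

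Ligation went with slightly lower signal across the respiratory genes, on both diets, and with few differences that stood out from the spread between animals. On the fat chow, 48 of the 56 tested members were lower in ligated than in sham hearts, with a median log2 difference of -0.09. On normal chow, 45 of 56 were lower, with a median of -0.10. The same median over all 10392 genes was -0.015 on the fat chow and -0.0015 on normal chow, and 53.5% and 50.4% of all genes were lower. Of the members, 38 were lower in both comparisons, 1 was higher in both (Uqcrh, which was lower in both with median scaling) and 17 were lower in 1 of them. With both diets averaged, 52 of 56 were lower, the median was -0.09 against -0.01 for all genes, and 53.9% of all genes were lower. Members of a complex share a tissue and an array, so these counts describe the list and carry no test.

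Single members rarely passed the test (limma, Benjamini-Hochberg adjusted p under 0.05 over all genes tested). None of 56 passed in either diet alone, where 0.885% of all genes passed on the fat chow and 0.472% on normal chow. With both diets averaged, 1 of 56 passed, Ndufs7, where 3.14% of all genes did. At an unadjusted p under 0.05, 5 members (8.93%) were lower in ligated hearts on the fat chow, against 6.03% of all genes, and 8 members (14.3%) on normal chow, against 4.61% of all genes. Averaged over the diets, 12 members (21.4%) were lower at that p, against 7.26% of all genes. No member was higher in any of the 3 comparisons at that p, while 5.66% of all genes were on the fat chow, 5.79% on normal chow and 8.22% with the diets averaged.

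**Figure D1:**
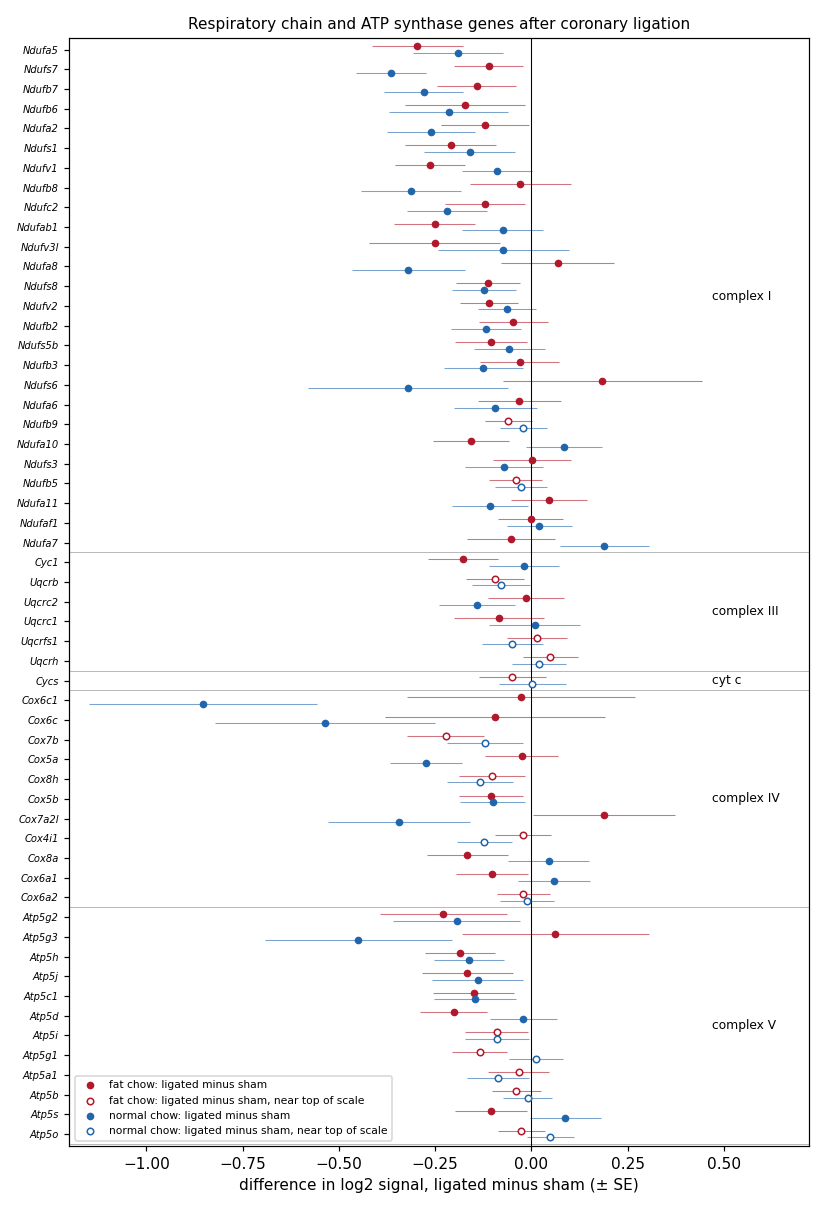
Difference in log2 signal, ligated minus sham, with its standard error, for the 56 tested members by complex, on the fat chow (red) and on normal chow (blue). Open symbols are members near the top of the scale. Most points lie left of 0, most of the open symbols lie close to it, and the widest error bars belong to Cox6c1, Cox6c, Ndufs6 and Atp5g3.

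Complex I, with 26 of the 56 tested members, held the gene that passed and most of those with small p. Of these 26, 24 were lower in ligated hearts with the diets averaged, with a median of -0.10, and 8 had an unadjusted p under 0.05. At that p there were 0 of 6 in complex III, 3 of 11 in complex IV and 1 of 12 in ATP synthase. Of all genes, 7.26% were lower at that p. Complex I is also the largest of these complexes, and no difference between complexes was tested. The medians of complex III, complex IV and ATP synthase were -0.06, -0.10 and -0.10. Ndufs7 encodes the subunit that holds the last iron-sulfur cluster before ubiquinone. Its log2 signal had a lowest, median and highest value of 12.77, 13.08 and 13.42 in ligated fat-fed hearts, against 13.09, 13.18 and 13.28 in sham fat-fed hearts. In ligated chow-fed hearts the 3 values were 12.84, 12.99 and 13.00, against 13.12, 13.37 and 13.52 in sham chow-fed hearts. On normal chow every ligated animal lay below every sham animal, while on the fat chow the groups overlapped, and 1 ligated animal was the highest of both. Ndufs7 was picked for its small p in the same values, and the share of all genes without overlap is not given here.

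Averaged over the diets, Ndufs7 fell by 15.2% in ligated hearts (log2 difference -0.24, SE 0.064, limma adjusted p = 0.0374). On normal chow alone the difference was -0.36 (SE 0.090, adjusted p = 0.0693), and on the fat chow it was -0.11 (SE 0.090, adjusted p = 0.669). The surgery difference itself differed between the diets by 0.25 (SE 0.13), with an adjusted p of 0.878. With the background set as a block the averaged difference stayed at -0.24 with an adjusted p of 0.0422. Within the high-background arrays alone it was -0.17 and within the low-background arrays -0.35, with adjusted p-values of 0.818 and 0.193. The call was lost when any 1 of 15 of the 24 animals was left out, with an adjusted p between 0.0508 and 0.0742. Those were animals 25, 28, 37 and 39 (ligated fat-fed), 16, 23, 24 and 38 (ligated chow-fed), 12, 17 and 34 (sham fat-fed) and 7, 13, 22 and 40 (sham chow-fed).

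The promoters of the 3 members with the smallest p that have an entry in RefSeq's promoter table (build GRCr8) are shown because these genes had the smallest p-values after ligation. The 250 bases before each start are printed 5′ to 3′ on the gene's strand, with capitals for matches to the 5 motifs named below. Ndufs7 lies at chr7:10110499-10110748 (minus strand), Ndufa5 at chr4:53971236-53971485 (minus strand) and Ndufb7 at chr19:41477292-41477541 (minus strand). Atp5i (now Atp5me), at chr14:1464610-1464859 (plus strand), is added as the member with the most of the 5 motifs.
Ndufs7: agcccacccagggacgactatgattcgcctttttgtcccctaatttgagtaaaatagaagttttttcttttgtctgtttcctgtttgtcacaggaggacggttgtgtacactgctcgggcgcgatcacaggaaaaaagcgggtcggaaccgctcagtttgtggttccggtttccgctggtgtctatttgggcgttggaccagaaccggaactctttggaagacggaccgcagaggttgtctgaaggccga
Ndufa5: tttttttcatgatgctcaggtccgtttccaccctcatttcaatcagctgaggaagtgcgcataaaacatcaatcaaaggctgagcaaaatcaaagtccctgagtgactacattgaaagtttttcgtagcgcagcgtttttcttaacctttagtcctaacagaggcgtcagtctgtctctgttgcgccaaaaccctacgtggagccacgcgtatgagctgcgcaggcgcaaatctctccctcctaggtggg
Ndufb7: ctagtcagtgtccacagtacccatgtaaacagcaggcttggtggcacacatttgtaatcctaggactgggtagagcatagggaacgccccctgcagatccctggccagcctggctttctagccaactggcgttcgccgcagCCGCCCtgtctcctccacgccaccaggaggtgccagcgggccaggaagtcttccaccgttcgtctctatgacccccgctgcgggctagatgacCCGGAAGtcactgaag
Atp5i: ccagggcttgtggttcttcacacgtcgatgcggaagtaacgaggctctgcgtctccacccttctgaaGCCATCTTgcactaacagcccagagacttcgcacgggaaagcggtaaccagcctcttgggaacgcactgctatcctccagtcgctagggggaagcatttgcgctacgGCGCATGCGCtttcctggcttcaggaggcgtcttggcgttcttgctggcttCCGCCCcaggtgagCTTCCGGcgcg

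Of the 58 members, 50 had a promoter entry, and letters were searched on both strands of the 250 bases. GCGCATGC, the core of sites for NRF1 (a regulator of nuclear genes for mitochondrial proteins), lay in 7 of 50 member promoters (14.0%), against 736 of all 33469 promoters (2.20%). CCGGAAG, the core bound by GABP and other ETS factors, lay in 13 (26.0%), against 7.27% of all. AAGGTCA, the half-site of the oestrogen-related receptors (ERR), lay in 4 (8.0%), against 3.99% of all, and AAGATGGC, a YY1 core, lay in 2 (4.0%), against 1.63% of all. The GC box GGGCGG lay in 18 (36.0%), against 30.5% of all. The Ndufs7 and Ndufa5 windows held none of these 5 strings. Ndufb7 held the GABP letters from -16 to -10 relative to its start and a GC box on the other strand. In Atp5i the NRF1 letters matched on both strands within 1 run of 10 bases, GCGCATGCGC, from -76 to -67.

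The next members by p were also parts of complex I. Ndufa5, an accessory subunit of the matrix arm, had a lowest, median and highest log2 signal of 14.08, 14.53 and 14.92 in ligated fat-fed hearts, against 14.68, 14.83 and 15.01 in sham fat-fed hearts. On normal chow the values were 14.50, 14.69 and 14.88 in ligated hearts, against 14.72, 14.84 and 15.10 in sham hearts. The groups overlapped on both diets, and the averaged difference was -0.24 (SE 0.083, adjusted p = 0.122). Ndufb7, an accessory subunit of the membrane arm, averaged 14.61 ± 0.15 and 14.50 ± 0.27 in ligated fat-fed and ligated chow-fed hearts, against 14.75 ± 0.06 and 14.78 ± 0.10 in the sham groups on the same diets (SD, n = 6 each). Its averaged difference was -0.21 (SE 0.073, adjusted p = 0.127).

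Ndufv1, the subunit that binds NADH, had the smallest p of all members on the fat chow. Its lowest, median and highest log2 signal was 13.34, 13.47 and 13.64 in ligated fat-fed hearts, against 13.68, 13.71 and 13.81 in sham fat-fed hearts. These groups did not overlap, but Ndufv1 was picked for its small p in the same values, so this adds no support. The share of all genes without overlap is not given here. The difference was -0.26 (SE 0.091, adjusted p = 0.209). On normal chow the values were 13.34, 13.67 and 13.87 in ligated hearts, against 13.50, 13.69 and 14.04 in sham hearts, which overlapped, with a difference of -0.09 (SE 0.091, adjusted p = 0.801). Ndufab1, the mitochondrial acyl carrier protein, differed by -0.25 on the fat chow (adjusted p = 0.329) and by -0.07 on normal chow. Ndufb8, a membrane arm subunit, went the other way round, with -0.31 on normal chow (adjusted p = 0.377) and -0.03 on the fat chow. Ndufc2 had an averaged difference of -0.17 (adjusted p = 0.250), and Ndufa2 and Ndufs1, named after their values were seen, had the other 2 unadjusted p-values under 0.05.

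The highest difference of complex I was that of Ndufa7, an accessory subunit with a low signal, at 0.19 on normal chow (SE 0.12, adjusted p = 0.603) and -0.05 on the fat chow. On the fat chow the highest was Ndufs6, at 0.18 (SE 0.26, adjusted p = 0.830), against -0.32 on normal chow. The fat-chow direction of Ndufs6 turned with the background set as a block, to -0.10 (adjusted p = 0.840), and ligated hearts were lower within the high-background arrays (-0.15) and within the low-background arrays (-0.07, with 1 ligated animal). Ndufa8, an accessory subunit on the outer face of the inner membrane, differed by 0.07 on the fat chow and by -0.32 on normal chow, with adjusted p-values of 0.898 and 0.434. Its signal reached from 11.29 to 11.76 in ligated fat-fed and from 11.10 to 11.55 in ligated chow-fed hearts, against 11.11 to 11.91 in sham fat-fed and 11.44 to 12.25 in sham chow-fed hearts. All 4 ranges overlapped.

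**Figure D2:**
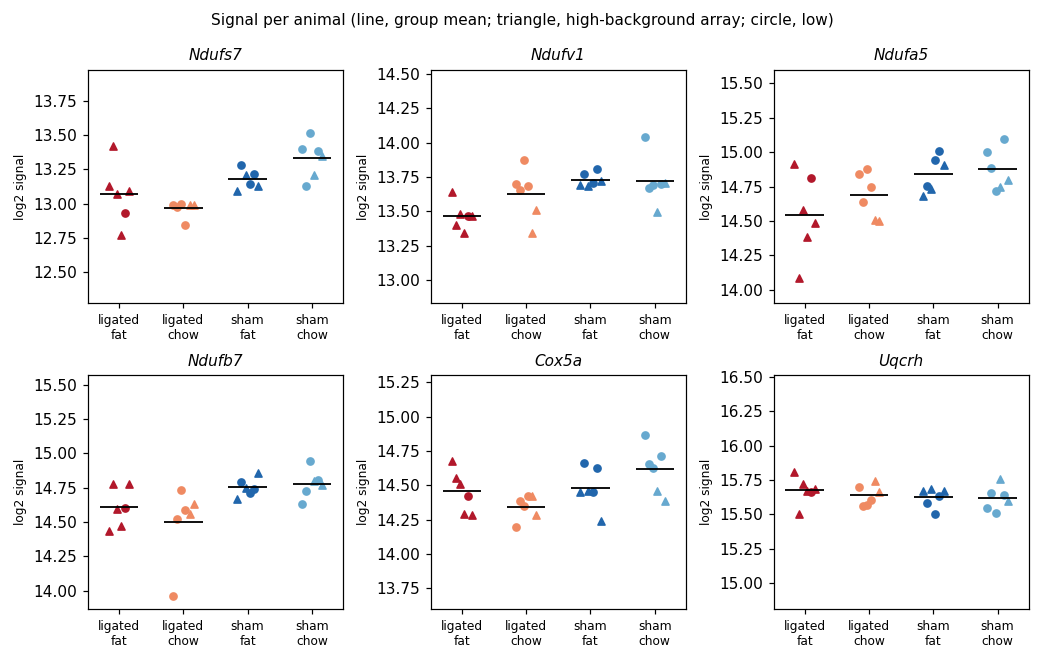
Log2 signal of 6 members in each animal, by group, with the group mean as a line. Triangles are arrays with high background and circles arrays with low background. In Ndufs7 the 6 ligated chow-fed hearts lie below the 6 sham chow-fed hearts, in Ndufv1 the 6 ligated fat-fed hearts lie below the 6 sham fat-fed hearts, and in Uqcrh the 4 groups overlap. Ndufs7 and Ndufv1 were picked for small p in the same data.

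Complex III and cytochrome c showed small differences, whose size depended on the scaling. Of 6 tested complex III members, 5 were lower with the diets averaged, with a median of -0.06, and none had an unadjusted p under 0.05. Uqcrh, the acidic hinge protein beside cytochrome c1, had a lowest, median and highest log2 signal of 15.50, 15.68 and 15.81 in ligated fat-fed hearts, against 15.50, 15.65 and 15.69 in sham fat-fed hearts. On normal chow the values were 15.56, 15.64 and 15.74 in ligated hearts, against 15.51, 15.62 and 15.76 in sham hearts. The groups overlapped almost wholly, and the averaged difference was 0.04 (SE 0.050, adjusted p = 0.817), or -0.14 with median scaling. Cyc1, the haem-bearing cytochrome c1, had the lowest difference of the complex on the fat chow, -0.18 (SE 0.091, adjusted p = 0.455), against -0.02 on normal chow. Uqcrc2, a core protein, had the lowest on normal chow, -0.14 (SE 0.099, adjusted p = 0.670), against -0.01 on the fat chow. Cycs, the electron carrier cytochrome c itself, had an averaged difference of -0.02 (SE 0.061, adjusted p = 0.920). With median scaling the averaged difference was -0.21 for Cycs and the median was -0.18 for complex III, against -0.20 for complex I, -0.23 for complex IV and -0.22 for ATP synthase.

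In complex IV, 11 of 11 tested members were lower with the diets averaged, with a median of -0.10, and 3 had an unadjusted p under 0.05. Cox5a, which sits on the matrix side of the enzyme, had a lowest, median and highest log2 signal of 14.28, 14.47 and 14.68 in ligated fat-fed hearts, against 14.24, 14.45 and 14.66 in sham fat-fed hearts. On normal chow the values were 14.20, 14.37 and 14.43 in ligated hearts, against 14.39, 14.64 and 14.87 in sham hearts. The fat-fed groups nearly coincided (difference -0.03, adjusted p = 0.945), while all 6 ligated chow-fed hearts lay below the mean of sham chow-fed hearts (-0.27, SE 0.094, adjusted p = 0.234). Within the high-background arrays the chow difference was -0.07 and within the low-background arrays -0.40. Cox7b, a small membrane subunit, differed by -0.22 on the fat chow (SE 0.099, adjusted p = 0.376) and by -0.12 on normal chow (adjusted p = 0.738).

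The widest difference of any member was that of the pseudogene entry Cox6c1 on normal chow. Its log2 signal was 7.37, 9.64 and 9.79 (lowest, median, highest) in ligated chow-fed hearts, against 9.74, 9.98 and 10.35 in sham chow-fed hearts. The difference was -0.85 (SE 0.30, adjusted p = 0.238), and the lowest ligated animal lay far below the median of its group. On the fat chow the values were 9.17, 9.92 and 10.18 in ligated hearts, against 9.55, 9.73 and 10.26 in sham hearts, with a difference of -0.03. Cox6c, the coding gene, differed by -0.54 on normal chow (adjusted p = 0.527) and by -0.09 on the fat chow, or -0.36 there with the background set as a block. A probe for a pseudogene and one for its parent gene may share transcripts, so the values of this pair are uncertain. Cox7a2l differed by 0.19 on the fat chow and by -0.34 on normal chow, with adjusted p-values of 0.732 and 0.527.

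In ATP synthase, 11 of 12 members were lower with the diets averaged, with a median of -0.10, and 1 had an unadjusted p under 0.05. That was Atp5h, a subunit of the peripheral stalk, whose lowest, median and highest log2 signal was 13.02, 13.38 and 13.51 in ligated fat-fed hearts, against 13.39, 13.55 and 13.68 in sham fat-fed hearts. On normal chow the values were 13.24, 13.35 and 13.73 in ligated hearts, against 13.40, 13.58 and 13.66 in sham hearts. The ranges overlapped on both diets, and the averaged difference was -0.17 (SE 0.064, adjusted p = 0.16). Atp5d, the delta subunit of the rotating central stalk, differed by -0.20 on the fat chow (SE 0.087, adjusted p = 0.344) and by -0.02 on normal chow. The genes Atp5g1, Atp5g2 and Atp5g3 encode the same mature ring subunit c, and their averaged differences were -0.06, -0.21 and -0.19, with adjusted p-values of 0.637, 0.410 and 0.663. With the background set as a block that of Atp5g3 was -0.32. On normal chow the differences in ATP synthase ran from -0.45 for Atp5g3 to 0.09 for Atp5s. Atp5b, the catalytic beta subunit, had an averaged difference of -0.02 and Atp5a1, the alpha subunit, one of -0.06.

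Many of these genes are among the brightest on the array, which may limit what could be measured. Whether their probes were saturated was not tested. A member was counted as near the top of the scale where its raw signal reached 50% or more of the highest signal of its array on at least 12 arrays. That held for 15 of the 58 members, out of 87 probes on the whole array: Ndufb5 and Ndufb9 in complex I, Uqcrb, Uqcrfs1 and Uqcrh in complex III, Cox4i1, Cox6a2, Cox7b and Cox8h in complex IV, Atp5a1, Atp5b, Atp5g1, Atp5i and Atp5o in ATP synthase, and Cycs. The median share of the highest signal ran from 60.4% for Atp5i to 92.7% for Atp5b. Their within-group SD lay between 0.050 and 0.16 (median 0.089), against 0.098 to 0.56 (median 0.17) for the 41 members below the top and a median of 0.24 over all genes tested.

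Ndufb9, a membrane arm subunit of complex I, had a median share of 85.8% and shows what such a gene looks like. Its lowest, median and highest log2 signal was 15.62, 15.71 and 15.82 in ligated fat-fed hearts, against 15.71, 15.77 and 15.83 in sham fat-fed hearts. On normal chow the values were 15.71, 15.73 and 15.76 in ligated hearts, against 15.71, 15.75 and 15.81 in sham hearts. All 24 animals lay close together, and the averaged difference was -0.04 (SE 0.043, adjusted p = 0.739). The 15 members near the top had a median averaged difference of -0.04, with 13 lower, and the other 41 had a median of -0.12, with 39 lower. The near-top median was -0.22 with 15 of 15 lower when arrays were scaled by their median in place of quantile normalization, and the median of the other 41 was then -0.19 with 39 lower. So the smaller difference of bright members depended on the scaling, and no difference between these sets was tested.

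**Figure D3:**
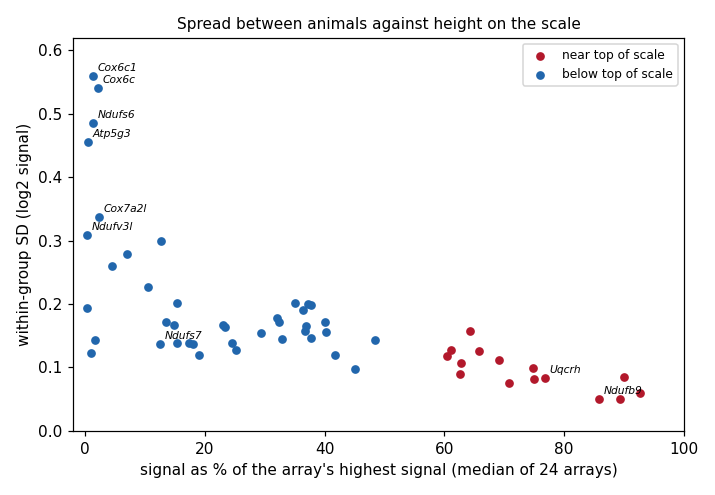
Within-group SD of log2 signal (vertical) against the signal as a percentage of the highest signal of the array (horizontal, median of 24 arrays), 1 point for each of the 56 tested members. The 15 members near the top (red) lie between 0.050 and 0.16, and Cox6c1, Cox6c, Ndufs6 and Atp5g3, all with low signal, have the widest spread.

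Each animal can be summarised by the median, over the 56 members, of the log2 deviation from each gene's mean. It ran from -0.18 to 0.01 in ligated fat-fed hearts (median -0.03) and from -0.10 to 0.05 in ligated chow-fed hearts (median -0.06). It ran from -0.01 to 0.07 in sham fat-fed hearts (median 0.05) and from -0.03 to 0.10 in sham chow-fed hearts (median 0.05). The ligated groups reached lower, and the groups overlapped on both diets. With median scaling the ranges were wider, from -0.43 to -0.01 and from -0.17 to 0.28 in the ligated fat-fed and ligated chow-fed groups, against -0.01 to 0.19 and -0.12 to 0.30 in the sham groups on the same diets. The chow-fed groups overlapped there, while the fat-fed groups just failed to, with a highest ligated value of -0.0149 against a lowest sham value of -0.0082. Within the high-background arrays the members' median averaged surgery difference was -0.08, and within the low-background arrays it was -0.10.

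**Figure D4:**
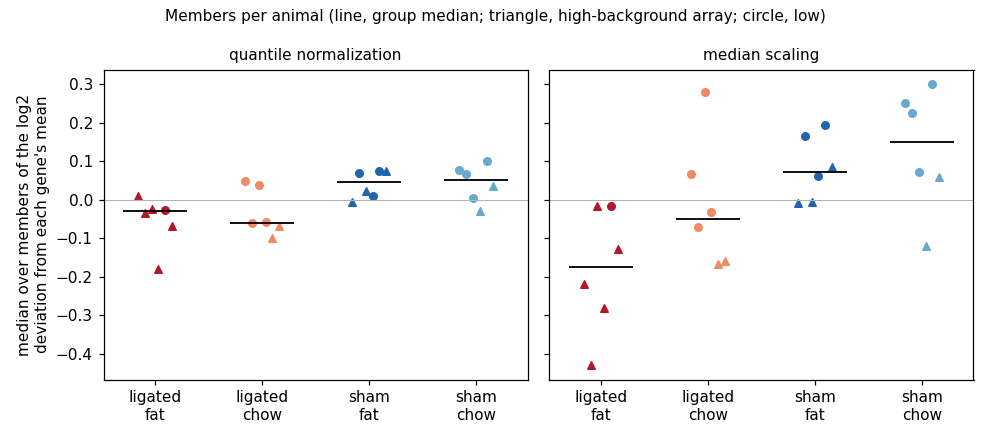
Median over the 56 members of the log2 deviation from each gene's mean, 1 point per animal, under quantile normalization (left) and median scaling (right). Lines are group medians, triangles high-background arrays and circles low-background arrays. The ligated groups have lower medians than the sham groups on the same diet in both panels. The points overlap except for the fat-fed groups in the right panel, which lie end to end.

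Genes around the respiratory chain gave the following counts with the diets averaged. In complex II (succinate dehydrogenase), 4 of 4 genes were lower, with a median of -0.13, and none was called. Sdha, its flavoprotein, differed by -0.25 (SE 0.077, adjusted p = 0.0839) and Sdhb, its iron-sulfur subunit, by -0.13 (adjusted p = 0.264). Of 11 tested assembly factors, 9 were lower and none was called, with Cox15 (haem A synthesis) at -0.21 (adjusted p = 0.0944) and Lrpprc (mitochondrial mRNA stability) at -0.20 (adjusted p = 0.179). Of 7 genes of ubiquinone synthesis, 5 were lower, and Coq8a, a kinase-like protein of that pathway, fell by 0.28 in ligated hearts (SE 0.068, adjusted p = 0.0198). Its difference was -0.50 on the fat chow (SE 0.096, adjusted p = 0.00754) and -0.05 on normal chow (adjusted p = 0.913), with an interaction of -0.45 (SE 0.14, adjusted p = 0.878). Sham fat-fed minus sham chow-fed hearts gave 0.39 for it (adjusted p = 0.313). The other one of smallest p, Coq3, a methyltransferase, differed by -0.17 (adjusted p = 0.234). Of 13 tested regulators of respiratory genes, 12 were lower and none was called. The smallest p belonged to Tfam, which packages mitochondrial DNA, at -0.22 (adjusted p = 0.0818), and to the coactivator gene Ppargc1b at -0.42 (adjusted p = 0.0975). Of 6 inner membrane carriers and pores, 6 were lower with a median of -0.04, and none was called. Vdac3 and Slc25a5 had the smallest p, at -0.10 and -0.09. Another 3 subunit genes that the symbol rule missed, Atp5mg, Atp5mk and Ndufa10l1, were all lower, with a median of -0.13, and none was called.

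Markers of other cell types moved in the same comparison. Of 14 fibroblast markers, 14 were higher in ligated hearts with the diets averaged, with a median of 0.60, and 5 were called, among them Mfap4 at 0.82 and Cd248 at 0.68. Of 10 macrophage markers, 10 were higher, with a median of 0.42, and 3 were called, the C1q chains. The summed normalized signal of the fibroblast list ran from 60436 to 108357 in ligated fat-fed hearts and from 61993 to 91968 in ligated chow-fed hearts, against 54449 to 68224 in sham fat-fed and 53355 to 88593 in sham chow-fed hearts. That of the macrophage list ran from 6325 to 10291 and from 5705 to 10375 in the ligated groups, against 4332 to 6819 and 5034 to 7971 in the sham groups, in the same order of diets. Of 15 cardiomyocyte markers, 10 were lower with a median of -0.04 and none was called. With median scaling their median was -0.20, against -0.20 for the respiratory members, and on the fat chow alone it was -0.32, against -0.27 for the members. On normal chow alone it was -0.07 under that scaling, against -0.14 for the members. The median over all genes was then -0.04 with the diets averaged, -0.07 on the fat chow and 0.005 on normal chow. Their sum ran from 527130 to 564766 and from 542766 to 571801 in the ligated groups, against 530196 to 563143 and 552058 to 575908 in the sham groups. The part of these cell types in the lower respiratory gene signal was not tested. Both measured atrial markers were higher, with a median of 1.96. Nppa, a natriuretic peptide gene of the atria that strained ventricles also express, rose by 2.88 in ligated hearts (adjusted p = 4.37e-06), and Myl7, the atrial myosin light chain, differed by 1.05 (SE 0.69, adjusted p = 0.521). A part of atrial tissue in these values was not tested. Endothelial markers were higher for 8 of 8 (median 0.07, 1 called), erythroid markers for 3 of 5 (median 0.01) and adipocyte markers for 1 of 4 (median -0.18), with none called in the last 2 lists. The adipocyte genes Adipoq, Plin1 and Lep were above background on at most 3 arrays.

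The fat chow went with no called member, in either operation or in both averaged. In ligated hearts, 30 of 56 members were lower on fat chow than on normal chow, with a median of -0.01, and in sham hearts 29 of 56 were lower, also with a median of -0.01. Of all genes, 0.00962% passed in ligated hearts, 0.0192% in sham hearts and 0.0577% with the operations averaged. At an unadjusted p under 0.05 there were 3 members in ligated hearts (2 higher and 1 lower), 1 lower in sham hearts and 1 higher with the operations averaged, against 9.64%, 5.97% and 9.22% of all genes in either direction. The standard error of a member's diet difference within an operation was the same as in the surgery comparisons, since all groups had 6 animals. For bright members the direction depended on the scaling: 5 of 15 were lower on fat chow (operations averaged, median 0.01), and 15 of 15 with median scaling (median -0.16).

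The smallest p of the diet comparisons in ligated hearts belonged to Atp5g3, 1 of the 3 genes for ring subunit c. Its lowest, median and highest log2 signal was 7.74, 8.46 and 8.84 in ligated fat-fed hearts, against 6.84, 7.67 and 8.27 in ligated chow-fed hearts. The difference was 0.72 (SE 0.24, adjusted p = 0.503), and all 6 fat-fed animals lay above the mean of the chow-fed ones, with overlap. With the background set as a block it was 0.33 (adjusted p = 0.996), and within the high-background and the low-background arrays it was 0.30 in each. The high set held only 2 ligated chow-fed animals, and the low set only 1 ligated fat-fed animal. Cox6c1 came next with 0.64 (SE 0.30, adjusted p = 0.514), or 0.39 with the block, and then Ndufa10, a membrane arm subunit of complex I, with -0.20 (SE 0.099, adjusted p = 0.515). In sham hearts the smallest p was that of Ndufa8, at -0.31 (SE 0.15, adjusted p = 0.821), followed by Cox7a2l at -0.36 (SE 0.18, adjusted p = 0.855).

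No gene on the array passed for the interaction of surgery and diet (0% of 10392 by limma), and 5.42% had an unadjusted p under 0.05. Of the members, 31 of 56 had a negative interaction, the median was -0.01 and none had an unadjusted p under 0.05. The smallest p belonged to Cox7a2l, whose surgery difference on fat chow exceeded that on normal chow by 0.53 (SE 0.26, adjusted p = 0.878). Its log2 signal averaged 10.50 ± 0.37 and 10.33 ± 0.24 in ligated fat-fed and ligated chow-fed hearts, against 10.31 ± 0.14 and 10.67 ± 0.49 in sham fat-fed and sham chow-fed hearts (SD, n = 6 each). The sham chow-fed group was both the highest and the most scattered.

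Complex IV has muscle and ubiquitous forms of some subunits, and for 2 such pairs both probes were measured. The within-array log2 ratio of the muscle form Cox6a2 to Cox6a1 averaged 0.91 ± 0.27 in ligated fat-fed and 0.72 ± 0.12 in ligated chow-fed hearts, against 0.82 ± 0.21 in sham fat-fed and 0.79 ± 0.15 in sham chow-fed hearts (SD, n = 6 each). That of Cox8h to Cox8a averaged 2.24 ± 0.35 and 2.12 ± 0.30 in the ligated groups, against 2.18 ± 0.20 and 2.30 ± 0.16 in the sham groups, in the same order. None of the 8 comparisons of these ratios passed an exact two-sided permutation test over animals, where the smallest possible p is 0.0022. The adjusted p was 0.732 in each, and the largest difference of Cox6a2 over Cox6a1 was 0.19 for ligated fat-fed minus ligated chow-fed hearts. That difference was 0.092 without animal 18 (ligated fat-fed), 0.054 as the mean within the background sets and -0.0039 with median scaling. Cox6a2 and Cox8h are near the top of the scale, and a ratio between probes shows only unequal change.

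Members differed in how they varied between animals of the same group. Over the 24 animals, the within-group deviations of Atp5g3, Ndufs6, Cox6c and Cox6c1 went together, with Pearson correlations between 0.71 and 0.96 for the pairs, the highest for Ndufs6 with Atp5g3. This group was picked after its values were seen. The median over all 1540 pairs of members was 0.083, with 28 pairs above 0.7 and 5 below -0.7. A second group, Ndufa5, Ndufab1, Ndufb6 and Ndufb3, also went together, with correlations between 0.72 and 0.89 for the pairs. Ndufv3l (now Ndufv3), named after its values were seen, ran against the first group. Its correlations were -0.80 to Atp5g3, -0.80 to Ndufs6, -0.65 to Cox6c and -0.62 to Cox6c1. It ran with genes of the second group, at 0.72 to Ndufab1 and 0.70 to Ndufb6. Other members also ran against genes of the first group. Among them were Ndufa6, with -0.80 to Cox6c and -0.69 to Ndufs6, and Cyc1, with -0.71 to Ndufs6. These are descriptions over animals that share arrays and background sets, without a test. Among all 10392 genes, 249 correlated above 0.8 with the mean of Atp5g3, Ndufs6 and Cox6c, and 161 below -0.8.

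The background set moved with the first group, Atp5g3, Ndufs6, Cox6c and Cox6c1. Atp5g3 ran from 8.20 to 8.86 on the 12 high-background arrays and from 6.84 to 8.14 on the 12 low-background arrays, with no overlap. Ndufs6 ran from 9.87 to 10.36 on the high arrays and from 8.54 to 9.72 on the low ones, again with no overlap. The share of all genes, or of the other members, that separate in this way is not given here. So the separation is not shown to be particular to these genes. Cox6c ran from 10.01 to 11.55 and from 9.16 to 10.68, and Cox6c1 from 9.17 to 10.35 and from 7.37 to 10.15, both with overlap. Ndufv3l was the other way round, from 6.32 to 6.86 on the high arrays and from 6.73 to 7.39 on the low ones. Ndufs7, for comparison, had a median of 13.11 on the high and 13.13 on the low arrays. The diet difference of Cox6c in ligated hearts was 0.58 (SE 0.29, adjusted p = 0.519) without the set in the fit and 0.18 with it.

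**Figure D5:**
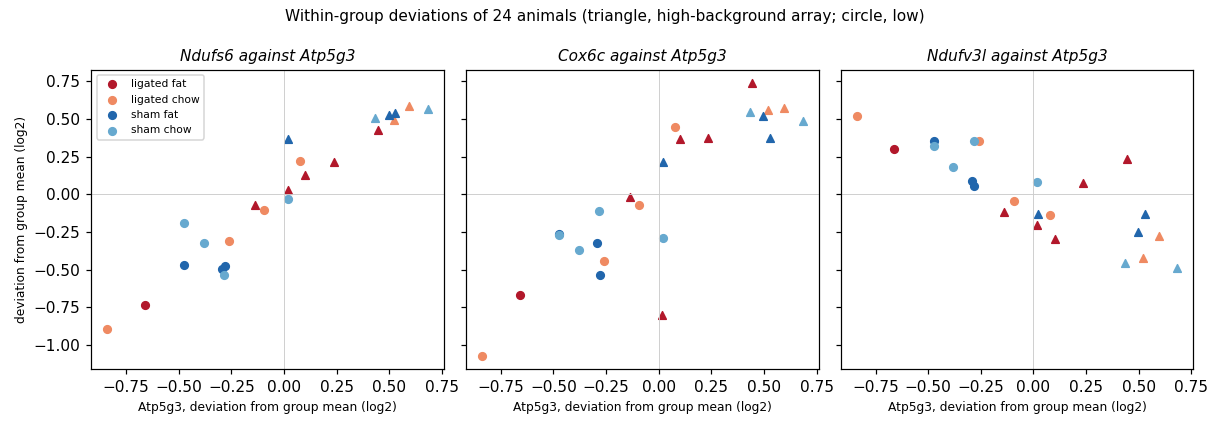
Deviation from the group mean (log2 signal) of Ndufs6, Cox6c and Ndufv3l (vertical) against that of Atp5g3 (horizontal), 1 point for each of 24 animals, coloured by group. Triangles (high-background arrays) lie mostly to the right and circles (low-background arrays) mostly to the left, Ndufs6 and Cox6c run upwards with Atp5g3, and Ndufv3l runs downwards.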

How the data were processed

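Left ventricle RNA of 24 rats was hybridised to Illumina rat bead arrays, and BeadStudio 3 is named in the submitters' processing notes. The deposited signals are linear intensity values of each probe, with no sign of background correction or scaling in them, and each has a detection p-value per the file headers. A second deposited table holds the authors' normalized intensity values, whose columns share 1 distribution. Here, R 4.3.3 and limma 3.58.1 were used: neqc (background from the detection p-values, offset 16, quantile normalization, log2), a filter of detection p under 0.05 on at least 6 arrays (10540 probes, 10392 genes), lmFit on the means of 4 groups (20 residual degrees of freedom) and eBayes. Adjusted p-values are limma's, by Benjamini-Hochberg over all genes tested, in 7 comparisons, and SE values are those of the fit. Near-top members and background sets are defined in the text, and the sets were read from the median raw signal of undetected probes. The number of arrays limits the precision. The fit was tested on simulated data with differences larger than the members' median and without background sets. That test does not show how well differences as small as these are found. The labels name separate animals and pair none.

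The members and gene lists were chosen with earlier results of these data known. Picked by rule for naming were Ndufb9, Uqcrh, every called member, the 5 of smallest p in each comparison and the extremes of each complex in both surgery comparisons. The isoform pairs and the near-top members were picked too. Not all of these have values in the text. Ndufa6, Ndufaf1, Ndufb5, Uqcrb, Uqcrfs1, Cox4i1 and Atp5o have no difference given, and some extremes of complex IV and ATP synthase are left out. Symbols were updated through RefSeq, by accession for 32 members, by symbol for 22 and by synonym for 4. Alternatives, among them the authors' normalized values, changed the background correction, scaling, filter, model and animals. Promoters came from RefSeq (GRCr8). Esrra, Pecam1 and Kdr were not analysed here.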

Additional observations from a re-analysis of the deposited data

Results flagged for a closer look

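In the 224 sets of 6 values (56 members in 4 groups), 15 had a highest or lowest animal farther from its neighbour than Dixon's 95% critical value for its share of the range allows. Chance alone flags about 1 in 20 such sets. All values are log2 signals, and each is followed by its nearest neighbour in the group.

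Animal 18 (ligated fat-fed) was set apart in 4 members. It was the highest in Uqcrc1 at 15.37 (next 14.71) and in Atp5d at 14.31 (next 14.15), and the lowest in Ndufs5b at 14.75 (next 15.17) and in Ndufa7 at 7.08 (next 7.39). Animal 4 (ligated chow-fed) was set apart in 3 members, as the lowest in Ndufa2 at 14.02 (next 14.62) and in Ndufb7 at 13.96 (next 14.52) and the highest in Ndufb3 at 14.23 (next 13.98).

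Another 6 ligated animals were each set apart in 1 member, and the remaining 4 in none. Among fat-fed ones, animal 39 was the lowest in Ndufb8 at 12.32 (next 12.67) and animal 5 the lowest in Atp5h at 13.02 (next 13.33). Among chow-fed ones, animal 23 was the lowest in Ndufs7 at 12.84 (next 12.97), animal 16 the lowest in Ndufa8 at 11.10 (next 11.39), animal 38 the lowest in Uqcrb at 15.28 (next 15.58) and animal 24 the lowest in Cycs at 15.21 (next 15.44). In sham hearts, animal 11 (fat-fed) was the highest in Atp5a1 at 15.75 (next 15.59) and animal 13 (chow-fed) the highest in Uqcrc1 at 14.99 (next 14.71).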

How the results depend on the processing

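On normal chow no member was called for surgery. The count there was 1 under cyclic loess and with the authors' normalized values (Ndufs7 in both), and 1 without background correction, with an intensity trend and with array weights, and it ran from 0 to 1 with 1 animal left out. On the fat chow the count was 0 under every alternative run. Averaged over the diets, the count of 1 became 0 within the high-background arrays, 0 within the low-background arrays (12 arrays each), 3 with median scaling (Ndufs7, Ndufb7 and Cox7b), 4 with array weights and 0 with median scaling on all probes, an alternative chosen after seeing the data, and it ran from 0 to 2 with 1 animal left out. Over all genes, the called count in that comparison was 326, and it was 665 with array weights, 55 with median scaling on all probes, 10 within the high-background arrays and 34 within the low-background arrays. On the fat chow it was 92, and 307 with array weights, and on normal chow it was 49, and 120 with array weights. The cause of these differences was not tested, and the fits within a set also rested on fewer arrays.

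The members' median surgery difference stayed below 0 under every alternative run. It was -0.27 on the fat chow with median scaling and -0.15 with median scaling on all probes, -0.18 on normal chow with scaling on all probes, and -0.20 and -0.17 under these scalings with the diets averaged. The median of all genes moved too. It was -0.07 and 0.04 on the fat chow, -0.04 on normal chow, and -0.04 and -0.003 with the diets averaged, in the same order of scalings. The diet medians followed the scaling: in ligated hearts the median was -0.14 with median scaling and 0.11 with median scaling on all probes, where the median of all genes was -0.09 and 0.16. With the operations averaged it was -0.094 and 0.074, where the median of all genes was -0.05 and 0.11. The interaction median was -0.13 with median scaling, where the median of all genes was -0.08. Of single named members, 2 gained a call with median scaling and none did with the background set as a block. No direction of a called value turned. No paired analysis was possible because no animal number is shared between groups. Signal near the top of the scale may limit what could be seen in 15 members, which was not tested, and low signal left Ndufb4 and Cox6b out of the fit.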
